A study of Rattus norvegicus with 12 samples.

Results

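The 10 genes described here are the oxysterol receptor LXR alpha (Nr1h3), the lipogenic factor Srebf1 and 8 of the genes they are known to control: Abca1, Abcg1, Mylip, Acly, Acaca, Fasn, Elovl6 and Scd2. They were chosen by symbol, as every non-control probe whose RefSeq transcript, or failing that its gene name, current or older, belongs to 1 of the 10. This gave 18 of 41012 probes, and 10 of 16246 genes with a symbol on the array. Of the 10 genes, 4 had 1 probe, 4 had 2 and 2 had 3. The 3 Scd2 probes are named Scd on the array and were mapped to Scd2 by their RefSeq transcript.

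Male Sprague-Dawley (CD) rats gave left ventricle and whole blood, and the RNA was hybridised to single-colour Agilent oligonucleotide arrays. Rats of the treated groups received amiodarone by mouth at 300 mg/kg per day for 10 days, and rats of the control groups received 1% methylcellulose, the vehicle. Amiodarone is an antiarrhythmic drug, a cationic amphiphile that gathers in lysosomes. The 4 groups were therefore heart with vehicle, heart with amiodarone, blood with vehicle and blood with amiodarone, with 3 samples and 1 array per sample in each. No group carries a genetic change. The labels give the age as 10 weeks at the start and also as 11 weeks. They describe each sample as taken from a male rat but do not say whether a heart and a blood sample came from the same animal, so p-values measure the spread between these samples.

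Of 43379 spots, 21233 to 25032 were well above background on the heart arrays. Blood arrays had 14459 to 15548 with vehicle and 20625 to 21245 with amiodarone, and their 75th percentile of signal was 20.9 to 26.2 and 56.8 to 87.5. The blood groups thus differed in brightness before scaling. Cardiomyocyte markers marked the heart arrays, and 10 of 13 of them, Myh6 and Myh7 included, were not well above background on any vehicle blood array. A level below is the log2 processed signal minus the log2 of that array's 75th percentile, so 1 unit is a factor of 2. A difference is amiodarone minus vehicle on that scale.

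LXR alpha is a nuclear receptor that binds oxysterols and, paired with a retinoid X receptor, switches on genes that move cholesterol out of cells. Srebf1 encodes SREBP-1, a membrane-bound factor that is cut free in the Golgi and then drives fatty acid synthesis, and its own transcription is an LXR target. In macrophages, LXR raises the cholesterol exporters Abca1 and Abcg1, and through Mylip it removes the LDL receptor from the cell surface. Acly, Acaca, Fasn, Elovl6 and Scd2 then form a chain from cytosolic acetyl-CoA to monounsaturated fatty acids.

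RefSeq promoters (build GRCr8, 250 bases before each start) matched 6 of the 10 genes, and 7 promoters in all since Srebf1 has 2 entries. Abcg1, Fasn, Acaca and Elovl6 were not among them. The promoters of Srebf1 (the more downstream entry, minus strand, chr10:45519011-45519260) and Abca1 (minus strand, chr5:72596474-72596723) are shown because both hold a stretch of the same form, resembling an LXR element. Capitals mark GGTTACT, any 2 bases and CGG, here on the reverse strand.

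Srebf1: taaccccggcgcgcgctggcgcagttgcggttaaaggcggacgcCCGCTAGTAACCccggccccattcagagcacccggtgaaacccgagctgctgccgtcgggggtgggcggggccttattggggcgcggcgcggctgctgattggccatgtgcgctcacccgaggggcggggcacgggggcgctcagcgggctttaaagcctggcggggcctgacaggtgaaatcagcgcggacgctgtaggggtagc
Abca1: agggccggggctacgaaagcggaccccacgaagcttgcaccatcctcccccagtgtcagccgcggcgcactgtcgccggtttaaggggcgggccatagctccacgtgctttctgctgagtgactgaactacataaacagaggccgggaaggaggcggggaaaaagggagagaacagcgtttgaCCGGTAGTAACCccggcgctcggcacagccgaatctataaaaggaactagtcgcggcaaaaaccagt

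The stretch lies 206 to 195 bases before the Srebf1 start and 67 to 56 bases before the Abca1 start. It was written down after both promoters had been read, so its presence in them describes them and tests nothing. On either strand, 2 of the 7 promoters held it, and 8 of 33469 of all (0.0239%). The promoters of Nr1h3, Mylip, Scd2 and Acly and the other Srebf1 entry did not, though Nr1h3, Mylip and Scd2 also rose in heart. The direct repeat AGGTCA, any 4 bases, AGGTCA was in none of the 7 promoters and in 0.00299% of all. The sterol regulatory element TCACNCCAC was in none of the 7 and in 0.974% of all. The E-box CACGTG was in 1 of the 7, that of Abca1, and in 5.59% of all. The NF-Y box ATTGG was in 5 of the 7 and in 34% of all, and the GC box GGGCGG in 5 of the 7 and in 30.5% of all. A missing match says only that these letters are not in this window.

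Acaca and Scd2 carry probes that moved in opposite directions in blood, and these probes are printed 5′ to 3′ so that each value can be tied to its target. Positions are on rat build rn4, both genes on the plus strand. The upstream Acaca probe (chr10:72677048-72677107) and the upstream Scd2 probe (chr1:249365537-249365596) are shown as whole 60-base probes. The downstream Acaca probe (chr10:72678945-72679004) lies 1897 bases further 3′, and the array's annotation places its source RNA in the 3′ untranslated region. The downstream Scd2 probe (chr1:249370837-249370896) lies 5300 bases further 3′ in the genome. Of these downstream probes the first 30 bases are shown.

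Acaca upstream: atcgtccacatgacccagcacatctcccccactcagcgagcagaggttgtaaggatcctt
Acaca downstream: aactgagattgccatattatctgtccactt
Scd2 upstream: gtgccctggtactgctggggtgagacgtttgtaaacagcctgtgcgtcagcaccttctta
Scd2 downstream: gggatcctcagcagaggagtatttaagtcc

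In the left ventricle 7 of the 10 genes rose with amiodarone and none fell. Over all 17463 features tested in heart, 4.33% rose and 4.23% fell at an adjusted p below 0.05 (limma, two-sided, Benjamini-Hochberg over all features). The median difference of the 10 genes was 0.88, against 0.02 over all features. The receptor, Srebf1, both cholesterol exporters and Mylip rose, as did Acaca and Scd2, while Acly, Fasn and Elovl6 did not pass the test. In blood 8 of the 10 rose and none fell by the probe that stands for the gene, the exceptions being Nr1h3 and Abca1. With the mean of passing probes 6 rose, and Acaca and Scd2 were not called. The background in blood was far higher, since 40.3% of 15661 features rose and 27.1% fell. The median was 1.22 for the 10 genes and 0.44 over all features. Both counts are to be read against these backgrounds, and in blood most features passed the test in 1 direction or the other.

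**Figure D1:**
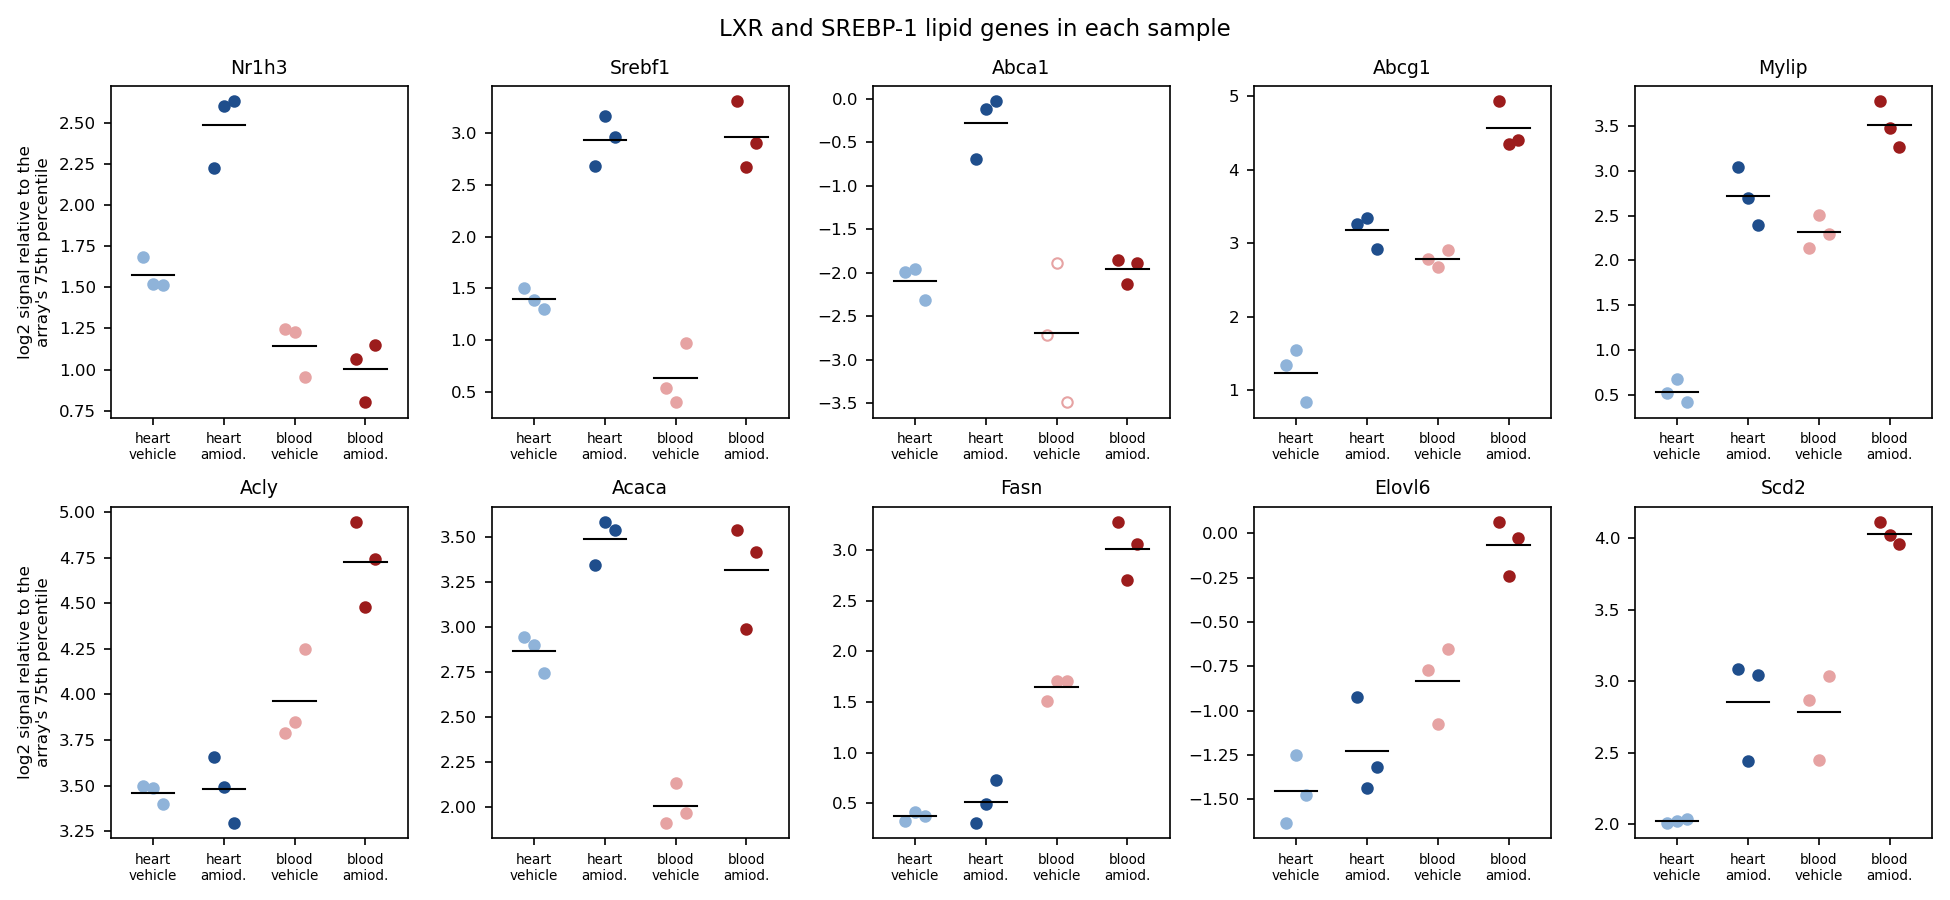
Level of each gene (log2 processed signal relative to the array's 75th percentile) in the 4 groups, by the probe that stands for the gene. Each point is 1 sample, the bar is the group mean of 3 samples, and an open point was not well above background; Srebf1 rises in both tissues, and Fasn and Acly separate the groups in blood but not in heart.

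Nr1h3, the receptor, had levels of 1.69, 1.52 and 1.51 in vehicle hearts and 2.22, 2.60 and 2.63 in amiodarone hearts. All treated hearts lay above all control hearts. The difference was 0.91 (SE 0.16, limma adjusted p = 0.0161, 3 samples per group). In blood the levels were 1.25, 1.23 and 0.96 with vehicle and 1.06, 0.80 and 1.15 with amiodarone, and the groups overlapped. That difference was -0.14 (95% interval -0.58 to 0.30, adjusted p = 0.518). Without scaling it became 1.46 and with spike-in scaling 1.13, against medians over all features of 2.04 and 1.70, so relative to the median it was -0.58, as it must be under any scaling of whole arrays. The drug effect in blood was lower than in heart by 1.05 (SE 0.25, adjusted p = 0.00618), a contrast that reversed to 0.68 without scaling and 0.11 with spike-in scaling.

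Srebf1, the SREBP-1 gene, had levels of 1.50, 1.38 and 1.30 in vehicle hearts and 2.69, 3.17 and 2.96 in amiodarone hearts. In blood it stood at 0.53, 0.39 and 0.97 with vehicle and 3.31, 2.67 and 2.91 with amiodarone. In each tissue every treated sample exceeded every control sample by more than 1 unit. It rose by 1.54 in heart (SE 0.16, adjusted p = 0.00248) and by 2.33 in blood (SE 0.24, adjusted p = 0.00093), the largest of the 10 differences in blood. A second Srebf1 probe, spotted 10 times and lying further 5′, rose by 1.25 in heart (adjusted p = 0.0418) and by 1.83 in blood (adjusted p = 0.00406). Leaving out 1 sample at a time ended its heart call in 5 of 6 fits (0.98 to 1.55). Vehicle blood measured this probe well above background on 1 of 3 arrays, and the SD of its spots there reached 0.64, against at most 0.09 in heart. The remaining, dim probe was well above background on 1 of 12 arrays and was not tested. The effect in blood minus that in heart was 0.79 (SE 0.31, adjusted p = 0.0537).

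Abca1, which passes cholesterol to lipid-poor apolipoprotein A-I, had levels of -2.00, -1.96 and -2.32 in vehicle hearts and -0.69, -0.12 and -0.02 in amiodarone hearts. The heart groups were separate by more than 1 unit. It rose by 1.81 in heart (SE 0.21, adjusted p = 0.00364). None of the vehicle blood arrays measured it well above background, with values of -2.72, -1.89 and -3.49, while amiodarone blood gave -1.86, -2.14 and -1.89. Its blood difference of 0.74 did not pass the test (95% interval -0.15 to 1.63, adjusted p = 0.119), and the background level of the vehicle arrays sets no fold. It rested on single vehicle samples, being 1.15 without sample 2 (adjusted p = 0.0162) and 0.34 without sample 3. It was 0.035 with the normexp correction described below, 1.03 with array median scaling (adjusted p = 0.0331), 2.01 with spike-in scaling and 2.34 without scaling.

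Abcg1, the exporter that loads cholesterol onto HDL particles, had levels of 1.35, 1.54 and 0.84 in vehicle hearts and 3.26, 3.34 and 2.92 in amiodarone hearts. Blood gave 2.78, 2.67 and 2.91 with vehicle and 4.93, 4.35 and 4.40 with amiodarone. The groups were apart in both tissues. It rose by 1.93 in heart (SE 0.22, adjusted p = 0.00306) and by 1.77 in blood (SE 0.21, adjusted p = 0.00103). The difference between these effects was -0.16 (95% interval -0.86 to 0.55).

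Mylip, the ubiquitin ligase that marks the LDL receptor for breakdown, showed the largest heart difference of the 10 genes. Its levels were 0.52, 0.68 and 0.42 in vehicle hearts and 3.04, 2.70 and 2.40 in amiodarone hearts. Blood levels were 2.14, 2.50 and 2.30 with vehicle and 3.78, 3.47 and 3.27 with amiodarone. No groups overlapped within a tissue. Mylip rose by 2.17 in heart (SE 0.19, adjusted p = 0.00112) and by 1.19 in blood (SE 0.20, adjusted p = 0.0026). The effect in blood minus that in heart was -0.98 (SE 0.29, adjusted p = 0.0176), a contrast of 0.75 without scaling and 0.18 with spike-in scaling. Its other probe was well above background on 2 of 12 arrays, both in amiodarone blood, and was not tested.

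**Figure D2:**
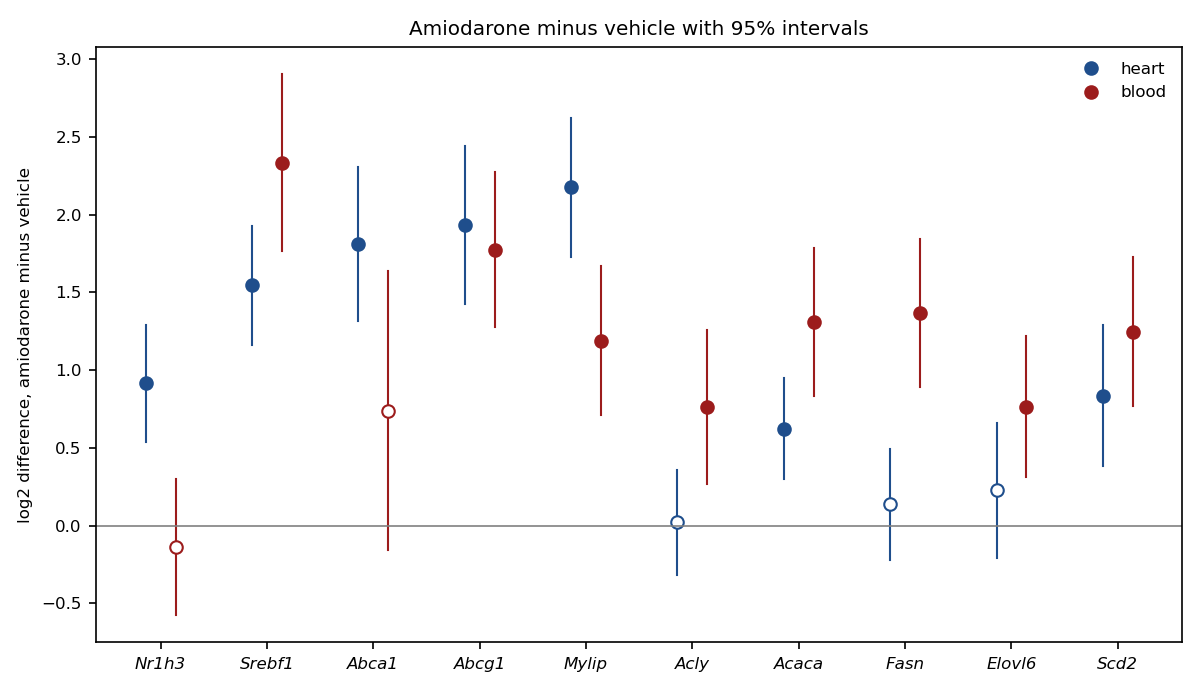
Difference in level, amiodarone minus vehicle (log2), of each gene in heart and blood, with the 95% interval of the limma fit as a line. Filled points passed an adjusted p of 0.05 and open points did not. In heart Mylip, Abcg1, Abca1 and Srebf1 lie highest, and the intervals of Acly, Fasn and Elovl6 include 0.

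Acly, ATP citrate lyase, supplies cytosolic acetyl-CoA. Its levels of 3.50, 3.49 and 3.4 in vehicle hearts overlapped with 3.66, 3.49 and 3.29 in amiodarone hearts, and the difference was 0.02 (95% interval -0.32 to 0.36). In blood it stood at 3.79, 3.85 and 4.25 with vehicle and at 4.95, 4.48 and 4.74 with amiodarone, without overlap. It rose in blood by 0.76 (SE 0.21, adjusted p = 0.0159), but not without amiodarone blood sample 1 (0.65, adjusted p = 0.0597) or sample 3 (0.75, adjusted p = 0.0522). The effect in blood exceeded that in heart by 0.74 (SE 0.26, adjusted p = 0.0371).

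Fasn, fatty acid synthase, had levels of 0.32, 0.42 and 0.38 in vehicle hearts and 0.30, 0.49 and 0.74 in amiodarone hearts. These overlapped, and the heart difference was 0.14 (95% interval -0.22 to 0.50). In blood they were 1.51, 1.71 and 1.71 with vehicle and 3.28, 2.70 and 3.06 with amiodarone, a rise of 1.37 (SE 0.20, adjusted p = 0.00166). Its second probe gave -0.11 in heart and 1.39 in blood (adjusted p = 0.00365). The effect in blood exceeded that in heart by 1.23 on the first probe (SE 0.26, adjusted p = 0.00358) and by 1.50 on the second (adjusted p = 0.00339).

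Elovl6, which lengthens palmitate to stearate, had levels of -1.64, -1.25 and -1.48 in vehicle hearts and -0.92, -1.44 and -1.32 in amiodarone hearts. The difference of 0.23 did not pass the test (95% interval -0.21 to 0.66). In blood it rose from -0.77, -1.08 and -0.65 to 0.06, -0.24 and -0.03, by 0.76 (SE 0.19, adjusted p = 0.0108). Its other probe was well above background on 1 of 12 arrays. The difference of the effects was 0.54 (95% interval -0.06 to 1.14).

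Acaca encodes acetyl-CoA carboxylase 1, which makes malonyl-CoA, and its probes disagreed. The downstream probe had levels of 2.94, 2.90 and 2.75 in vehicle hearts and 3.34, 3.58 and 3.53 in amiodarone hearts, a rise of 0.62 (SE 0.14, adjusted p = 0.0373). In blood the same probe rose from 1.91, 2.13 and 1.97 to 3.54, 2.99 and 3.41, by 1.31 (SE 0.20, adjusted p = 0.00189). The upstream probe went the other way in blood, from 0.01, 0.50 and -0.70 to -2.29, -0.82 and -1.66. Here every treated sample lay below every control sample, and the difference was -1.52 (SE 0.43, adjusted p = 0.0179 over all probes). In heart the upstream probe was dim, with -3.92, -3.77 and -2.64 against -3.43, -2.88 and -2.71. It was well above background there on 2 of 3 arrays of each group and was not tested. With the 12 arrays in 1 fit, blood minus heart was 0.68 for the drug effect on the downstream probe (adjusted p = 0.0411) and -1.96 on the upstream probe (adjusted p = 0.026). Averaging the probes gave a blood difference of -0.11 (adjusted p = 0.691). Without scaling the upstream blood difference was 0.08 (adjusted p = 0.858) and the downstream one 2.91, and the median of all features 2.04. Leaving out 1 sample at a time ended the blood call of the upstream probe in 3 of 6 fits, with differences of -1.91 to -1.18.

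Scd2, a stearoyl-CoA desaturase that makes oleate, behaved in the same divided way. Its downstream probe had levels of 2.01, 2.02 and 2.04 in vehicle hearts and 3.09, 2.45 and 3.04 in amiodarone hearts, a rise of 0.84 (SE 0.19, adjusted p = 0.041). In blood it rose from 2.87, 2.45 and 3.04 to 4.11, 4.02 and 3.96, by 1.25 (SE 0.20, adjusted p = 0.00221). The upstream probe fell in blood from 1.44, 1.69 and 2.04 to 0.17, 0.84 and 0.28, a difference of -1.29 (SE 0.26, adjusted p = 0.00453), and gave 0.12 in heart (adjusted p = 0.808). Averaging the probes gave 0.48 in heart (adjusted p = 0.147) and 0.31 in blood (adjusted p = 0.182), so neither call held. Unscaled, the upstream blood difference was 0.31 (adjusted p = 0.422). The middle probe, 1676 bases upstream of the downstream one, was not well above background on any vehicle blood array. It was at least 1.19-fold higher in amiodarone blood, taking for each vehicle array the higher of the probe's own value and the lowest signal well above background (means -1.02 and -1.98, adjusted p = 0.0484). Leaving out 1 sample at a time ended this call in 5 of 6 fits (0.67 to 1.37). The effect in blood differed from that in heart by 0.41 on the downstream probe (adjusted p = 0.258) and by -1.41 on the upstream probe (adjusted p = 0.0137).

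**Figure D3:**
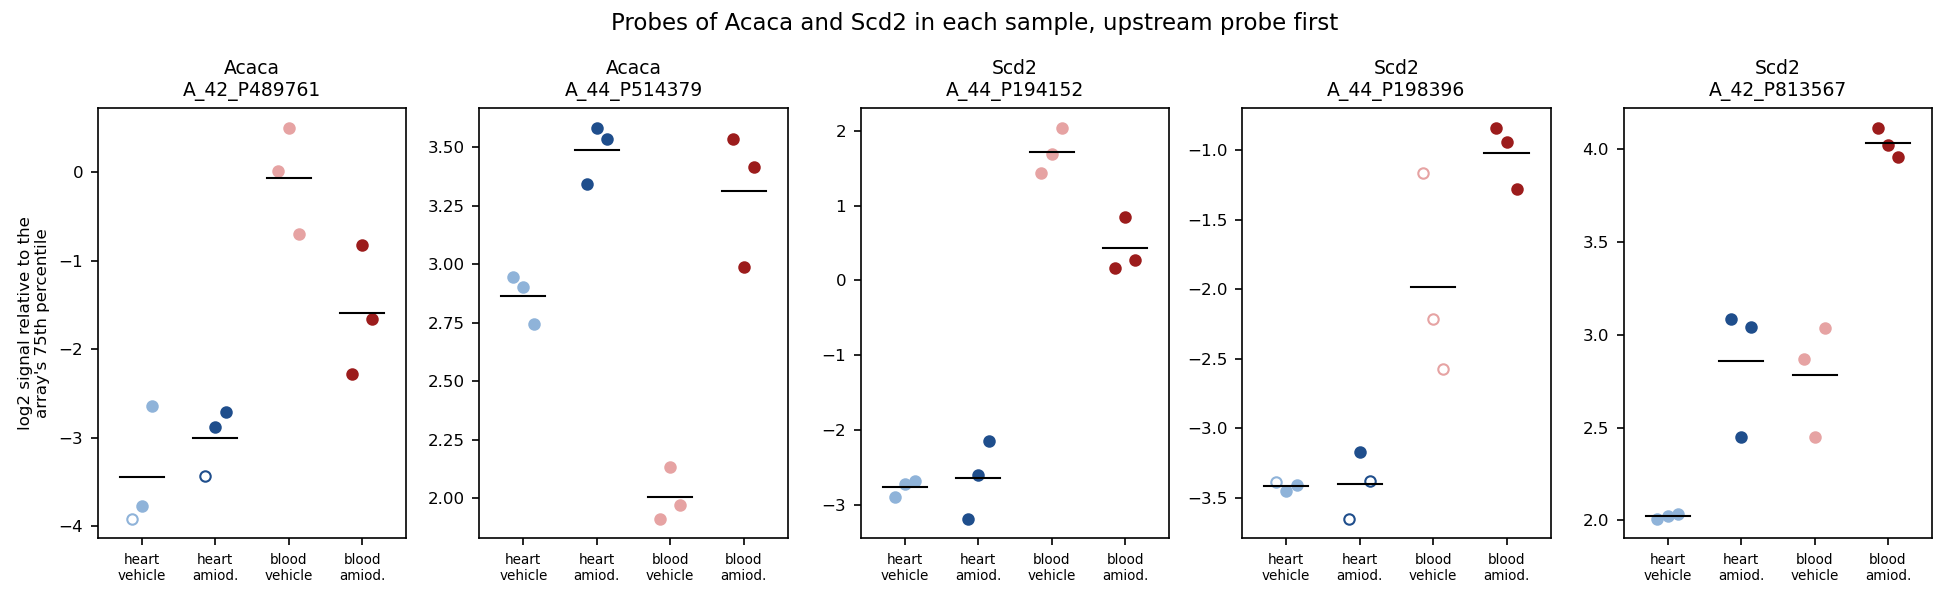
Levels (log2 relative to the array's 75th percentile) of 2 probes of Acaca and 3 of Scd2 in the 4 groups, 1 point per sample, bars for group means, open points not well above background. In blood the upstream probes fall with amiodarone and the downstream probes rise, and in vehicle samples the upstream probes are higher in blood than in heart.

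The upstream probes also set blood apart from heart without the drug. In vehicle samples the upstream Acaca probe was higher in blood than in heart by 3.37 (SE 0.44, adjusted p = 1.92e-05) and the upstream Scd2 probe by 4.49 (SE 0.28, adjusted p = 2.33e-08). The upstream Acaca probe entered this fit through blood alone. In heart it was well above background on 2 of 3 arrays of each group, so its p-value rests on dim heart values. The Acaca value was 0.82 without scaling (adjusted p = 0.07) and 1.15 with spike-in scaling (adjusted p = 0.0758), and the Scd2 value remained past the threshold in 9 of 9 alternatives, down to 1.94. The downstream probes differed by -0.86 (adjusted p = 0.000677) and 0.76 (adjusted p = 0.00475). In these 2 genes the probe that was higher in vehicle blood than in heart by over 3 units was the one that fell with amiodarone relative to the 75th percentile. With spike-in scaling that fall was not seen, at -0.26 for Acaca (adjusted p = 0.704) and -0.026 for Scd2 (adjusted p = 0.964). On the 75th percentile scale red cell markers were lower with amiodarone too. Their values with spike-in scaling, where the median of all blood features moves from 0.44 to 1.70, are not given here. All 12 red cell markers on the array were tested in blood, 10 fell and none rose, and their summed linear level, relative to each array's 75th percentile, was 11240 to 18470 with vehicle and 2797 to 5124 with amiodarone. Their part in the probe difference was not tested. Fewer cells of a type and less RNA per cell cannot be told apart in these bulk samples.

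Heart calls were of unequal strength. Srebf1, Abca1, Abcg1 and Mylip kept theirs in each fit that left out 1 sample. Nr1h3 lost its call without vehicle heart sample 1 (0.97, adjusted p = 0.0605), 2 (0.89, adjusted p = 0.0695) or 3 (0.88, adjusted p = 0.0758), and without amiodarone heart sample 2 (0.86, adjusted p = 0.067). Acaca lost it without vehicle sample 1 (0.66, adjusted p = 0.106), 2 (0.64, adjusted p = 0.105) or 3 (0.56, adjusted p = 0.153), and without amiodarone sample 2 (0.58, adjusted p = 0.129) or 3 (0.60, adjusted p = 0.0865). Scd2 lost it without vehicle sample 1 (0.83, adjusted p = 0.135), 2 (0.84, adjusted p = 0.124) or 3 (0.84, adjusted p = 0.132), and without amiodarone sample 1 (0.72, adjusted p = 0.0815) or 3 (0.74, adjusted p = 0.0965). Samples 1 and 2 of every group shared 1 slide per tissue and sample 3 lay on another. Within the first and the second heart slide, Nr1h3 gave 0.81 and 1.12, Srebf1 1.48 and 1.67, Abca1 1.57 and 2.29, Abcg1 1.86 and 2.08, and Mylip 2.27 and 1.98. Acaca gave 0.54 and 0.79, and Scd2 0.75 and 1.00. The 7 genes were called on these same arrays and the second slide holds 1 array per group. Equal signs on both slides therefore describe the calls and test nothing. With slide as a block, Scd2 had an adjusted p of 0.0536 and the other 6 kept their calls.

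In blood all 8 calls but that of Acly held in each fit that left out 1 sample, and most ended under another background correction. Within the first and the second blood slide, Srebf1 gave 2.53 and 1.94, Abcg1 1.92 and 1.49, Mylip 1.30 and 0.97, Fasn 1.38 and 1.35, and downstream Acaca 1.24 and 1.44. Acly gave 0.89 and 0.50, Elovl6 0.83 and 0.63, and downstream Scd2 1.41 and 0.92. Unscaled, the 8 differences ran from 2.36 (Acly) to 3.94 (Srebf1), and relative to the median of all features they were 0.33 to 1.90, a quantity that no scaling of whole arrays can change. The upstream probes gave -1.81 and -0.96 for Acaca and -1.06 and -1.76 for Scd2 on the 2 slides. These slides hold the arrays behind the calls, so their values only describe them. When the unprocessed signals were corrected with normexp and an offset of 50, which is above the 75th percentile of all vehicle blood arrays, 2 of the 10 genes passed in blood: Srebf1 (1.23, adjusted p = 0.0249) and Abcg1 (1.41, adjusted p = 0.0254). Under that setting the upstream probes gave -0.25 for Acaca (adjusted p = 0.227) and -0.60 for Scd2 (adjusted p = 0.0827).

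**Figure D4:**
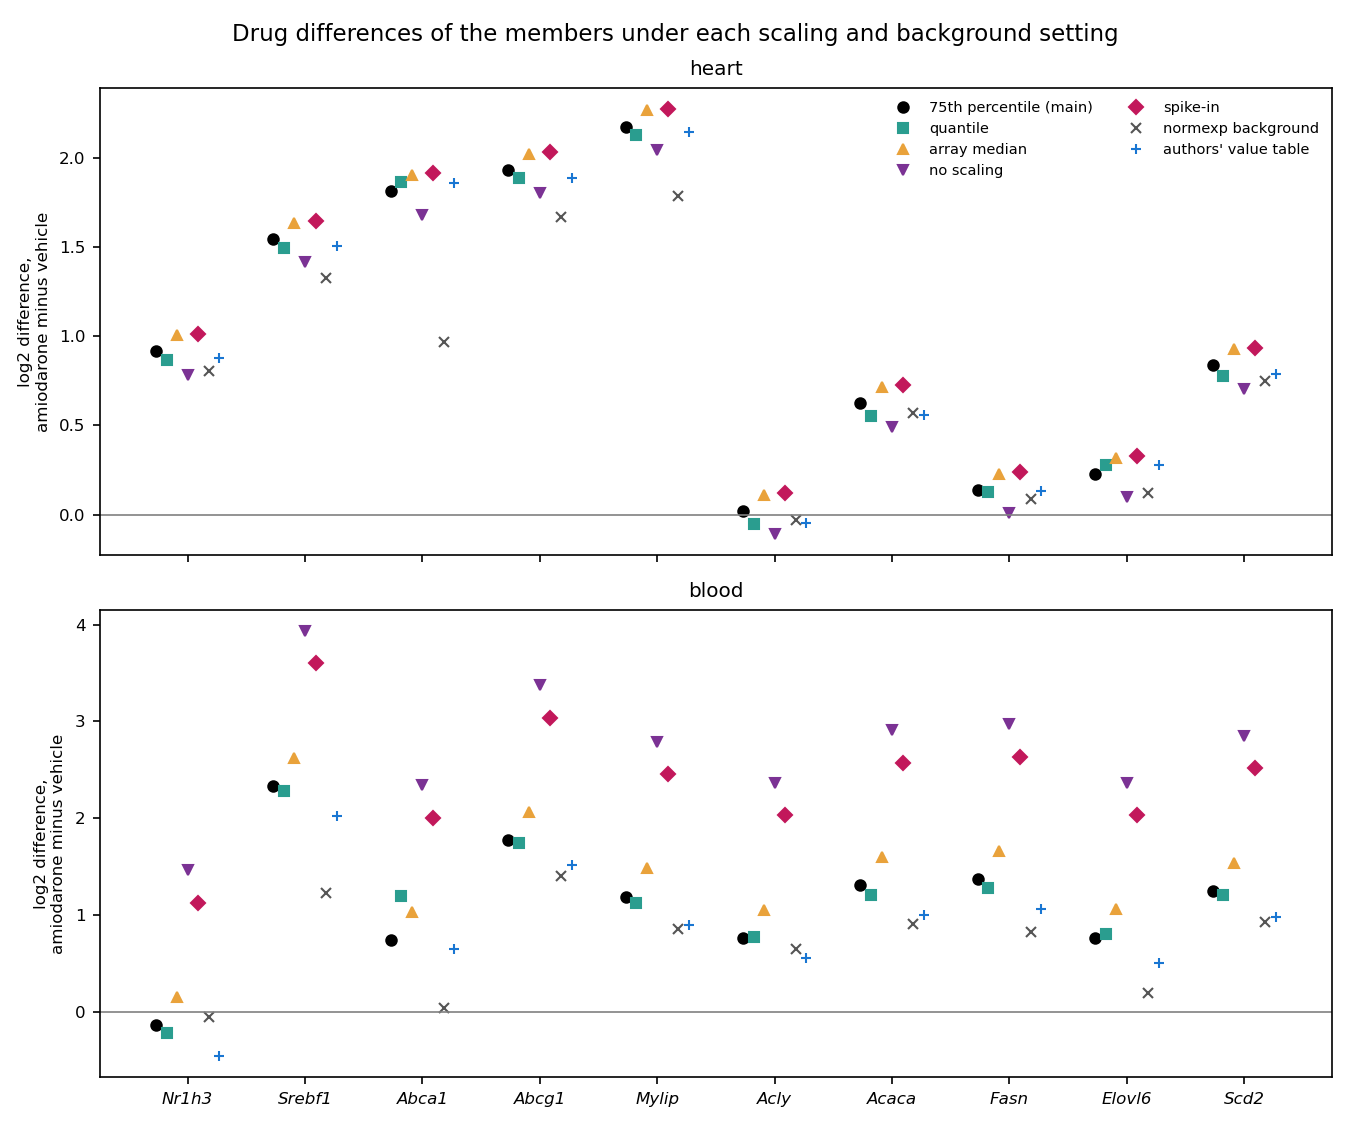
Difference in level, amiodarone minus vehicle (log2), of each gene in heart (top) and blood (bottom) under the 75th percentile scaling and 6 other scalings or background settings, 1 symbol per setting. Heart values stay close together for most genes, and blood values shift upward together without scaling and with spike-in scaling, where the median of all features is 2.04 and 1.70.

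The group order of the levels differed between the genes. Abcg1 ran from amiodarone blood down through amiodarone heart and vehicle blood to vehicle heart, and no neighbours overlapped. Mylip and Scd2 (downstream probe) had the same order, with amiodarone heart and vehicle blood overlapping. Fasn and Acly were highest in amiodarone blood, then vehicle blood, then the overlapping heart groups. Elovl6 had that order too, but its vehicle blood also overlapped with amiodarone heart. Srebf1 was highest in the overlapping treated groups of both tissues, then in vehicle heart, and lowest in vehicle blood. Downstream Acaca was highest in the treated groups as well, amiodarone heart and amiodarone blood overlapping, then in vehicle heart and last in vehicle blood. Nr1h3 was highest in amiodarone heart, then vehicle heart, then the overlapping blood groups. Abca1 was highest in amiodarone heart, and its other 3 groups overlapped with their neighbours.

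In vehicle samples 6 of the 10 genes were higher in blood than in heart (38.9% of 20051 features were) and 3 were lower (42.2% were). The higher ones were Mylip (1.78), Abcg1 (1.54), Fasn (1.27), Scd2 (0.76), Elovl6 (0.62) and Acly (0.50). The lower ones were Nr1h3 (-0.43), Srebf1 (-0.76) and downstream Acaca (-0.86). Tissue cannot be told apart from the RNA extraction kit and the slides, which differed between heart and blood. Without scaling all 6 higher genes were lower in blood and passed the test. With spike-in scaling all 6 values were negative, and Abcg1 (-0.68) and Mylip (-0.44) did not pass. The median of all features was then -2.73 and -2.39. For the drug effect in blood minus that in heart, 3 genes were higher (Fasn, Acly and Acaca; 21.7% of features were) and 2 were lower (Nr1h3 and Mylip; 24.8% were).

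Among the other genes of the pathway in heart, each count is to be read against the 4.33% of features that rose and the 4.23% that fell. Of 7 tested further LXR targets 2 rose and none fell. These were Apoe, an apolipoprotein of lipid efflux (1.51, SE 0.25, adjusted p = 0.0129), and Smpdl3a, a phosphodiesterase (1.05, SE 0.14, adjusted p = 0.0066). The median of that list was 0.49. Of 9 LXR partners and coregulators 1 rose, Nr0b2 (0.85, adjusted p = 0.029). Of 6 genes of SREBP processing 1 rose, Insig1, which holds the SREBP escort protein in the endoplasmic reticulum (1.06, SE 0.14, adjusted p = 0.00551). Of 14 other genes of fatty acid synthesis and desaturation, Mid1ip1, a partner of acetyl-CoA carboxylase, rose (0.65, adjusted p = 0.0353) and the desaturase Fads1 fell (-1.38, adjusted p = 0.00627). None of 8 other regulators passed, the lowest p being those of Thra (-0.62, adjusted p = 0.205) and Pparg (0.57, adjusted p = 0.311).

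Triglyceride synthesis in heart had 3 of 11 genes higher and 1 lower, where 4.33% of all features rose and 4.23% fell. Dgat2, which adds the last acyl chain, rose by 1.48 (SE 0.15, adjusted p = 0.00213), Gpam by 0.77 (adjusted p = 0.0167) and Lpin2 by 0.72 (adjusted p = 0.0456), and Agpat3 gave -0.69 (adjusted p = 0.023). Of 11 cholesterol genes known as SREBP-2 targets, 2 rose and 5 fell, with a median of -0.40. Squalene epoxidase (Sqle) fell by 1.44 (SE 0.18, adjusted p = 0.00483) and Dhcr7 by 0.97 (adjusted p = 0.0109), while Lss rose by 1.28 (SE 0.20, adjusted p = 0.0106) and Fdft1 by 0.85 (adjusted p = 0.00969). The cholesterol list and the 10 lipid genes thus had medians of opposite sign in heart.

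Several of these heart calls were weak. With 1 sample left out at a time, Lpin2 lost its call in 6 of 6 fits (0.56 to 0.81), and with the 12 arrays in 1 fit, where another probe stands for it, it gave 0.22 (adjusted p = 0.804). Nr0b2 (0.71 to 0.94) and Mid1ip1 (0.56 to 0.74) lost theirs in 5 of 6 fits, and Gpam (0.71 to 0.83) and Agpat3 (-0.74 to -0.63) in 4 of 6. Apoe lost it without vehicle sample 1 (1.45, adjusted p = 0.0676) or 3 (1.43, adjusted p = 0.0605), and Lss without vehicle sample 1 (1.30, adjusted p = 0.0519) or 3 (1.17, adjusted p = 0.0518). Fdft1 lost it without vehicle sample 1 (0.83, adjusted p = 0.0552) and Dhcr7 without vehicle sample 3 (-0.88, adjusted p = 0.0565). Dgat2, Fads1, Insig1, Smpdl3a and Sqle kept their calls in all 6 fits.

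In blood the same lists had more members called, as did the whole array, and each count is to be read against the 40.3% of features that rose and the 27.1% that fell. Dgat2 rose by 3.04 (SE 0.30, adjusted p = 0.000922), Dgat1 by 1.75 (adjusted p = 0.000922) and Lpin1, not well above background on any vehicle array, was at least 2.10-fold higher (adjusted p = 0.00106). Of 10 triglyceride genes 7 rose and 2 fell, Lpin2 among the latter (-1.89, adjusted p = 0.00124). The Lpin2 probe behind that value was not well above background on any heart array, and the heart value of Lpin2 comes from another probe. The mean of its probes gave -0.19 in blood (adjusted p = 0.391), and its fall did not pass without scaling (-0.29, adjusted p = 0.47) or with spike-in scaling (-0.62, adjusted p = 0.228). Of 7 further LXR targets 4 rose and 2 fell: Apoe (2.10, SE 0.27, adjusted p = 0.00121) and Smpdl3a (1.31, adjusted p = 0.00288) were higher, and Mlxipl, the carbohydrate response factor (-2.47, adjusted p = 0.00175), and Apoc1 (-1.19, adjusted p = 0.00366) lower. All 6 tested genes of SREBP processing rose, Scap (0.75, adjusted p = 0.00676), Insig1 (0.77, adjusted p = 0.0111) and Srebf2 (0.65, adjusted p = 0.0384) among them, with a median of 0.70 against 0.44 over all features. Insig2, also among the 6, was not well above background on any vehicle array and at least 1.37-fold higher. Its call ended in 4 of 6 fits that left out 1 sample. Rxra, the retinoid partner of LXR, fell (-1.20, adjusted p = 0.00177) and Nr1h2, LXR beta, rose (0.77, adjusted p = 0.00716), among 4 that rose and 2 that fell of 9 partners.

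Of 12 other genes of fatty acid synthesis and desaturation in blood, 7 rose and 1 fell. Oxsm, which elongates acyl chains in mitochondria, was at least 1.64-fold higher (adjusted p = 0.00093). It was not well above background on any vehicle blood array and passed the filter through amiodarone blood alone, so its p-value rests on such vehicle values. Mid1ip1 rose by 1.49 (adjusted p = 0.00178), Elovl5 by 1.09 (adjusted p = 0.00317) and Elovl1 by 0.95 (adjusted p = 0.00249). Of 9 cholesterol genes 6 rose and 1 fell. Cyp51, which also passed the filter through amiodarone blood alone, was at least 1.34-fold higher (adjusted p = 0.0151). Its vehicle values were not well above background on any array. Hmgcs1 rose by 0.65 (adjusted p = 0.0162), while Fdps fell by 1.19 (adjusted p = 0.00193). By the mean of passing probes Fdps gave -0.36 (adjusted p = 0.0769) and Elovl5 0.61 (adjusted p = 0.0603), so neither call held. Of 5 other regulators 3 rose, Thra (0.80, adjusted p = 0.00703), Mlx (0.72, adjusted p = 0.0154) and Usf2 (0.65, adjusted p = 0.0178). Leaving out 1 sample at a time ended the call of Srebf2 in 5 of 6 fits (0.51 to 0.84), of Hmgcs1 in 3 (0.53 to 0.75), of Usf2 in 3 (0.53 to 0.76) and of Cyp51 in 1, without amiodarone sample 2 (0.89, adjusted p = 0.0518). Without scaling and with spike-in scaling, Rxra, Fdps and Apoc1 were no longer lower. With the normexp correction, only Dgat2, Apoe and Lpin2 kept their calls among the blood genes named in this and the preceding paragraph. Scap (0.47, adjusted p = 0.216), Insig1 (0.42, adjusted p = 0.194) and Dgat1 (0.92, adjusted p = 0.0819) were among those that lost theirs.

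Markers of other cells moved with the drug in both tissues. Heart counts are to be read against the 4.33% of all features that rose and the 4.23% that fell. In heart 3 of 8 tested macrophage markers rose and none fell, and the summed linear level of the list was 31.5 to 46.1 with vehicle and 58.3 to 74.7 with amiodarone. Marco and Siglec1 were not well above background on any heart array. Monocyte markers summed to 29.7 to 38.0 and 48.0 to 69.2, with 1 of 6 called. Of 7 adipocyte markers 2 were tested and none was called. With vehicle 5 of the 7, Adipoq among them, were not well above background on any heart array. Plin1 and Lep were so on no heart array of either group. The list summed to 21.9 to 29.1 and 31.6 to 53.3, a sum to which the dim markers add little. Both tested neutrophil markers rose, and that list of 12 summed to 0.72 to 1.19 with vehicle and 1.47 to 2.44 with amiodarone. The only tested B cell marker fell, and that list summed to 4.15 to 6.95 and 1.1 to 1.28. None of 6 tested T cell and none of 7 tested natural killer cell markers was called, and 2 of 4 platelet markers rose and 1 fell. Red cell markers fell in 6 of 10, from 90.3 to 123 down to 21.0 to 25.2, fibroblast markers in 6 of 11, and 12 of 13 cardiomyocyte markers were not called. The part of these cells in the rises of Abca1, Abcg1, Mylip and Nr1h3 was not tested.

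In blood, monocyte markers summed to 243 to 292 with vehicle and 640 to 714 with amiodarone (5 of 9 rose, 2 fell), and neutrophil markers to 64.8 to 111 and 253 to 401 (5 of 8 rose, 1 fell). Natural killer cell markers rose in 8 of 10 and T cell markers in 8 of 10, B cell markers in 1 of 6 and platelet markers in 6 of 8, where 40.3% of all features rose. Their part in the blood differences was not tested.

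The genes whose levels ran most like those of 3 of the members over the 12 arrays were looked up among 7756 genes tested in both tissues. Mylip was closest to Abcg1 (Pearson r = 0.969), then to Tsc22d3 (0.957) and Pdcd2 (0.948). Srebf1 was closest to Klf10 (0.981), Acaa1a (0.979) and Dgkd (0.976), and Abca1 to Gramd1b (0.945), C16h19orf44 (0.944) and Xpa (0.927). The 12 arrays share tissue and treatment groups and the scaling of each array, so these values only describe which profiles lie near each other.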

How the data were processed

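Per the file headers, the intensity of each spot is the processed signal of Agilent Feature Extraction 9.5.1.1, background-subtracted and not normalized between arrays. A deposited table of intensity normalized by the authors served as an alternative, since heart and blood were normalized separately there. Signals were moved to log2, outlier-flagged spots left out, spots averaged per probe, and each array scaled by its 75th percentile. A probe was tested when all 3 arrays of 1 or more groups in the fit had it well above background, and a gene stood by its brightest passing probe. Of the 18 member probes 13 were tested in heart and 15 in blood. Tests used limma 3.58.1 in R 4.3.3 with data.table (1.17.8), each tissue alone for the drug and all 12 arrays for contrasts between tissues, and were tested on simulated data. Depth is the signal over background, and precision is limited by the number of arrays. Probe names came from accession (16336 probes), symbol (3742) or synonym (1108). Named genes are all members, up to 4 per pathway list and tissue with the smallest p past the threshold (2 as plain values where none passed), and the 3 nearest profiles of Srebf1, Abca1 and Mylip. Alternatives covered background, scaling, filter, probe choice, slide, replicate block and left-out samples. Members and lists were chosen with earlier results of these data known.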

Additional observations from a re-analysis of the deposited data

Results flagged for a closer look

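Of the 10 genes, 5 had a drug effect that differed between the tissues in the limma contrast of both effects (blood minus heart, log2, 12 arrays, adjusted p below 0.05). Over all 20051 features 46.5% were called in this contrast, so the count is close to that of the array. Fasn (1.23, adjusted p = 0.00358), Acly (0.74, adjusted p = 0.0371) and downstream Acaca (0.68, adjusted p = 0.0411) responded more in blood. Nr1h3 (-1.05, adjusted p = 0.00618) and Mylip (-0.98, adjusted p = 0.0176) responded less in blood. Among further probes of the genes the contrast was past the threshold for the second Fasn probe (1.50, adjusted p = 0.00339), the upstream Acaca probe (-1.96, adjusted p = 0.026) and the upstream Scd2 probe (-1.41, adjusted p = 0.0137). The 2 Acaca probes thus gave contrasts of opposite sign. The upstream one entered the fit through blood alone and was well above background on 2 of 3 arrays of each heart group. Leaving out 1 sample at a time, the contrast kept its call in all 12 fits for Nr1h3, Mylip, both Fasn probes and the upstream Scd2 probe. It lost it in 10 of 12 for downstream Acaca, 9 of 12 for Acly and 7 of 12 for the upstream Acaca probe.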

How the results depend on the processing

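Alternatives were fitted for all features. Normexp changes the signal read, its correction and the offset together, and the 12 arrays in 1 fit also change which probes pass and which probe stands for a gene, so their changes belong to no single choice. In heart, features called (1496 in the report's setting, 50.6% of them higher) came to 735 without scaling (30.6% higher), 943 with spike-in scaling (61.9%), 292 without a filter on dim probes, 269 on the first slide only and 930 with the 12 arrays in 1 fit, and 64.1% were higher with array median scaling. Members called in heart (7) came to 4 without scaling, 4 without the filter and 2 on the first slide only. In blood, features called (10556, 59.7% higher) came to 1425 with normexp (19.1% higher) and 24673 without the filter. Members called there (8) came to 2 with normexp and 6 with the mean of passing probes. The share of called features that were higher was 97.5% without scaling, 97.1% with spike-in scaling and 47.1% in the authors' value table. For the difference of the drug effects, features called (9327, 46.7% higher) came to 1861 with normexp, 18897 without the filter, 5239 with every array well above background and 5681 on the first slide only, and members called (5) to 2 with normexp and 2 on the first slide only. The share higher was 58.7% with quantile, 56.9% with array median, 98.5% without and 96.5% with spike-in scaling. For vehicle blood minus heart, features called (16264, 48% higher) came to 29980 without the filter and 7527 with every array well above background, and members called (9) to 5 on the first slide only. The share higher was 60.8% with normexp, 38% with array median, 16.9% without and 19.3% with spike-in scaling.

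Leaving out 1 sample gave 514 to 1324 features and 4 to 6 members in heart, 8375 to 10734 and 7 to 9 in blood, 7720 to 9693 and 3 to 6 for the difference of the effects, and 15598 to 16505 and 7 to 10 for vehicle blood minus heart.

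Samples with the same number share a slide within a tissue, but samples 1 and 2 share that slide with each other too. The correlation of deviations of same-numbered samples was -0.165, -0.238 and 0.316 in heart and 0.085, 0.172 and 0.308 in blood. In neither tissue did every sample correlate best with its own number, so the numbers were not taken to pair them. In blood the only exception was vehicle sample 1, which gave 0.167 with amiodarone sample 2. With the replicate block 696 features and 4 members were called in heart, 10721 and 8 in blood, and 9195 and 3 for the difference of the effects. For vehicle blood minus heart no replicate or slide block was fitted, since tissues share no slide, and the authors' table was not run because it was normalized per tissue.

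In heart Acly changed sign, never past the threshold, with normexp (-0.033), quantile scaling (-0.056), no scaling (-0.11) and the authors' values (-0.050), and over -0.068 to 0.11 with 1 sample left out. The upstream Scd2 probe did so without scaling (-0.0099), on the first slide (-0.082) and over -0.13 to 0.39 with 1 sample left out. Reversals in blood were Nr1h3 (1.46 without scaling, 1.13 with spike-in and 0.15 with array median scaling), Rxra (0.40 and 0.065), Fdps (0.42 and 0.080) and Apoc1 (0.41 and 0.073), and without scaling the upstream probes of Acaca (0.078) and Scd2 (0.31). Acaca by the mean of its probes gave -0.11 in blood, -0.64 for the difference of the effects and 1.26 for vehicle blood minus heart. For the difference of the effects, Nr1h3 (0.68 and 0.11) and Mylip (0.75 and 0.18) reversed without scaling and with spike-in scaling, and so did Abca1 (0.66 and 0.094) and Abcg1 (1.57 and 1.01). The upstream Scd2 probe (0.32) reversed without scaling, Srebf1 (-0.098) and its second probe (-0.48) with normexp, and Scd2 by the mean of its probes (-0.018). Abcg1 also gave 0.043 with array median scaling, 0.060 on the first slide and -0.34 to 0.045 with 1 sample left out. For vehicle blood minus heart those 2 settings reversed Abcg1 (-1.01 and -0.68), Mylip (-0.78 and -0.44), Fasn (-1.28 and -0.95), its second probe (-1.85 and -1.51), Acly (-2.06 and -1.72), Elovl6 (-1.94 and -1.60), Scd2 (-1.79 and -1.46) and its middle probe (-1.12 and -0.79). Normexp reversed Abca1 (0.66), Acly (-0.52) and Scd2 (-0.23) there, and array median scaling Acly (-0.11). The reversals without scaling, with spike-in scaling and with array median scaling go with a shift of the median of all features. For the difference of the effects that median was 1.80 without scaling and 1.23 with spike-in scaling. The cause of the other reversals was not tested.

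In heart the 10 genes kept direction and side of the threshold in 148 of 190 results under the alternatives, lost the call in 36 and changed sign in 6, all of Acly. The 148 include 19 each of Fasn and Elovl6 and 13 of Acly, genes that had no call to lose. Of the called genes, Acaca and Scd2 lost the call in 13 of 19 settings each and Nr1h3 in 8. Srebf1 and Abca1 lost it in 1 each, and Abcg1 and Mylip in none. In blood vehicle arrays few spots lay above background, which limits Abca1 and the dim probes most.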
